A study of Mus musculus with 4 samples.

Results

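The genes described are 9 cytokine genes of inflamed macrophages, chosen by name: Il1a, Il1b, Il1rn, Il6, Il10, Il12b, Il23a, Tnf and Lif. The choice was made with earlier results of these data known, so counts among the 9 are not independent of the data. All 9 were measured, each by 1 probe assigned to that gene alone, out of 19938 genes with such a probe. All 9 also passed a brightness filter that kept 11174 genes, those whose highest value over the arrays was at or above log2 7.09. The study put peritoneal macrophages of C57BL/6 mice, elicited with thioglycolate and 8 to 12 weeks of age, in medium with 1 of 3 fatty acids or in control medium. Palmitic acid is saturated with a chain of 16 carbons, while oleic and linoleic acid have 18 carbons and 1 or 2 double bonds. Each fatty acid was at 500 µM for 6 h, bound to bovine serum albumin (BSA). The control is named BSA alone in the sample labels, whereas the treatment protocol describes its vehicle as ethanol and KOH. All 4 groups share the strain, an injection of 1 mL of 4% thioglycolate 3 days before harvest, and selection by adherence to the plate. Each group is 1 Affymetrix array of RNA pooled from 3 samples, and whether these came from separate mice is not stated. With 1 array per group there is no spread between samples, so no difference below has a test, an interval or a p-value.

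These genes code for secreted signals that macrophages release when Toll-like receptors or tissue damage activate NF-kB and AP-1. Il1a and Il1b code for the agonists of the interleukin 1 receptor, and Il1rn for the antagonist that occupies the same receptor without signalling. Tnf, Il6 and Lif code for inflammatory mediators that act through their own receptors, the last of them sharing a signalling chain with IL-6. Il12b codes for the subunit common to IL-12 and IL-23, Il23a for the subunit specific to IL-23, and Il10 for a cytokine that dampens macrophage activation. On GRCm38.p6, Il1a spans chr2:129299609-129310186, Il1b chr2:129364569-129371164 and Il1rn chr2:24336860-24351491. Il6 spans chr5:30013114-30019975, Il10 chr1:131019845-131024970, Il12b chr11:44400063-44414677, Il23a chr10:128296140-128298084, Tnf chr17:35199367-35202007 and Lif chr11:4257568-4272514.

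The 4 arrays had medians between 7.07 and 7.13 and correlated pairwise at r between 0.991 and 0.996 over 35556 probes. The label of the cells was checked against markers. Of 15 macrophage markers 14 passed the filter, with Lyz2 between 13.85 and 13.92 and Cd68 between 13.63 and 13.69, while Cd163 stayed below it. Fcgr1, which codes for an Fc receptor, was the 1 macrophage marker past 1.5-fold, at -0.66 with palmitic acid and 0.65 with oleic acid. The median of the 14 differences from the control was -0.07 under palmitic, 0.04 under oleic and 0.03 under linoleic acid, and the last of these was -0.0049 when arrays were centred. Of 9 T and NK cell markers 8 were below the filter on every array, of 9 mast cell and eosinophil markers 8, of 6 B cell markers 4, of 11 neutrophil markers 7 and of 8 dendritic cell markers 5. Itgax, at 12.90 or above on every array, and Csf3r, at 11.07 or above, were the brightest of these lists, and macrophages also express both. Of 11 mesothelial and fibroblast markers, by contrast, 8 passed the filter, with Dcn at 10.57 or above on every array and Col1a1 at 9.39 or above.

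The cytokine genes split into 3 levels of brightness, given as log2 RMA values (RMA is the array summary used by the authors). Il1a, Il1b and Tnf were brightest, between 13.64 and 13.85 on every array, where the highest value of any probe was 14.44. Only 17 of the 11174 kept genes had a higher mean than Il1a, 20 than Tnf and 21 than Il1b. Il6, Il1rn and Il12b lay between 12.18 and 13.05, and Il23a between 10.71 and 11.33. Il10 and Lif were dim, between 6.84 and 7.73, next to the filter. Il10 reached the filter on the 3 fatty acid arrays and not on the control array, and Lif on every array but that of palmitic acid. Brightness differs between probes for reasons other than RNA amount, so it ranks a probe on the scale and does not rank the transcripts.

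Differences between arrays were smaller at the top of the scale than in its middle. Among the 184 kept genes whose highest value was 13 or above, the palmitic acid minus control differences had a robust SD of 0.0937 in log2, beside 0.218 among the 3932 genes between 9 and 11. The SD was 0.193 between 11 and 13 and 0.168 below 9. The share at least 1.5-fold higher or lower with palmitic acid was 1.63% in the brightest class and 5.09% in that middle class. For oleic acid these shares were 0.543% and 1.17%. Il1a, Il1b and Tnf lie in the range of the brightest class on every array, and Il6 falls in that class only through its control value of 13.05. A small difference of any of these genes does not show that the RNA was unchanged.

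**Figure D1:**
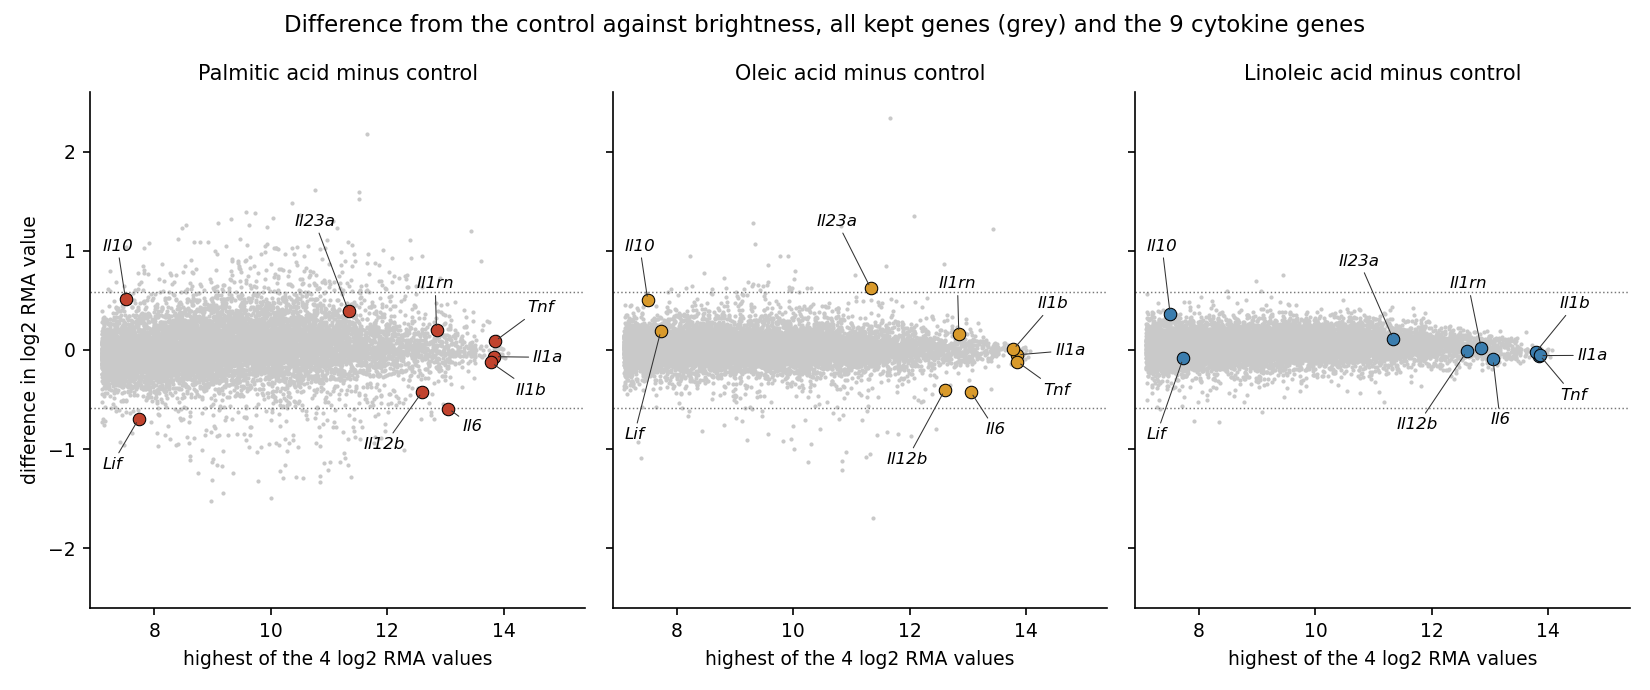
Each grey point is 1 of the 11174 kept genes, with its highest log2 RMA value on the horizontal axis and the fatty acid minus control difference on the vertical axis. Labelled points are the 9 cytokine genes and dotted lines mark a 1.5-fold difference. Il1a, Il1b and Tnf sit at the narrow bright end within 0.13 of the control on all panels, while Il6 with palmitic acid lies at -0.59.

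Against the control, palmitic acid had 2 of the 9 genes at least 1.5-fold lower, Il6 and Lif, and 0 higher. In all kept genes 1.41% were that much lower and 2.17% that much higher, 3.57% in all. Oleic acid had 1 gene at least 1.5-fold higher, Il23a, and 0 lower, where 0.376% of all kept genes were higher and 0.34% lower, 0.716% in all. Linoleic acid had 0 of 9 beyond 1.5-fold in either direction, where 0.0716% of all kept genes were, 0.0358% higher and 0.0358% lower. The median difference of the 9 genes was -0.07 under palmitic, 0.0043 under oleic and -0.03 under linoleic acid, beside medians over all kept genes of 0.00059, 0.01 and 0.04. The 3 comparisons subtract the same control array.

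**Figure D2:**
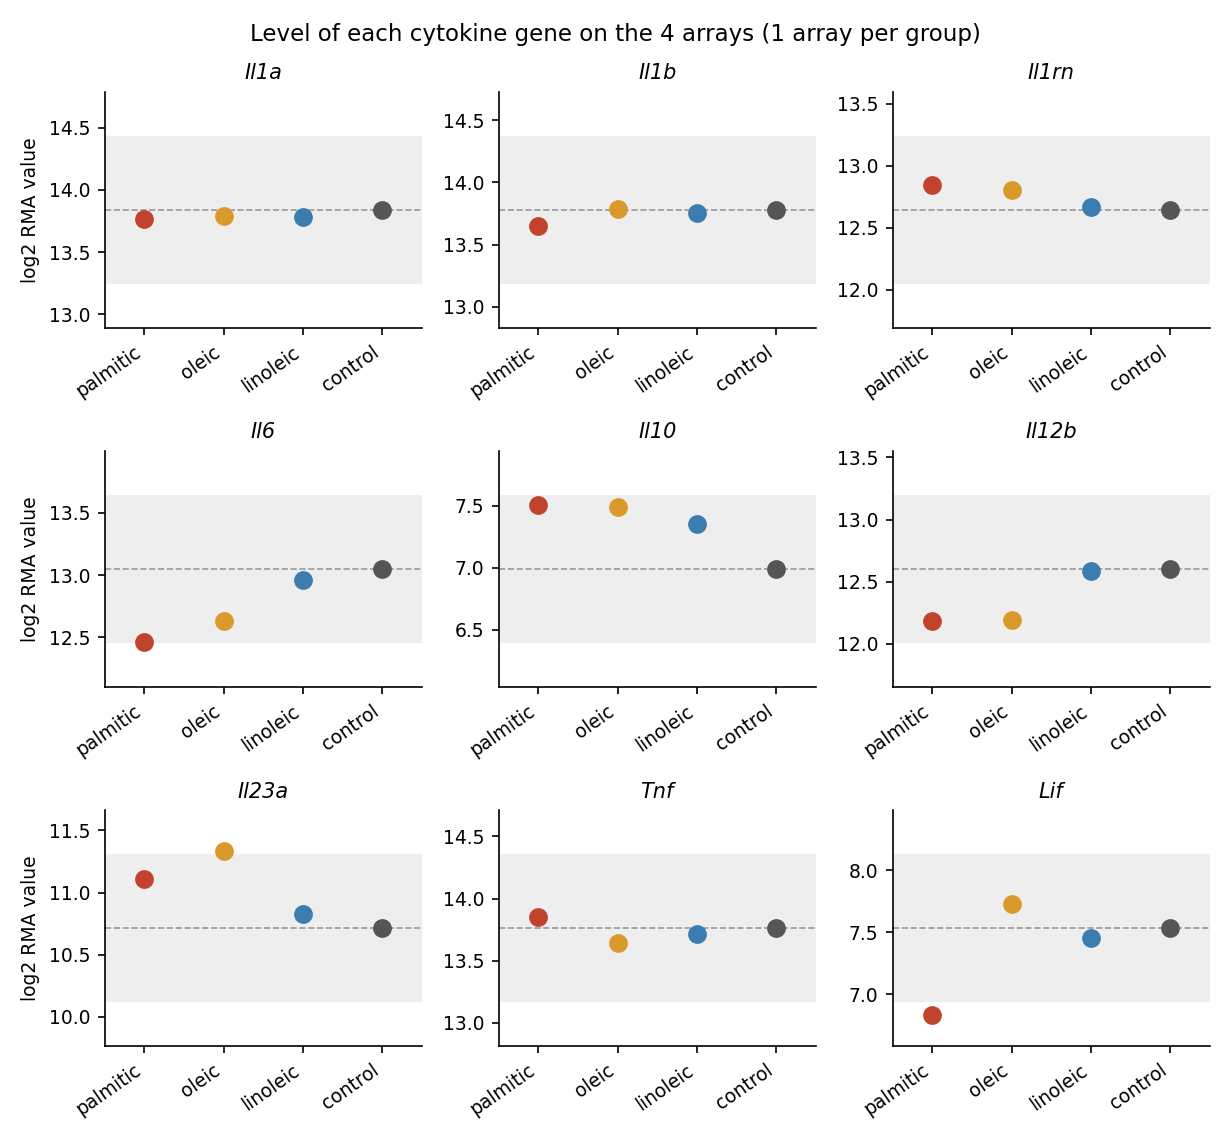
Points give the log2 RMA value of each gene on the palmitic, oleic, linoleic acid and control arrays, 1 array per group, on vertical axes of equal span. The dashed line is the control value and the grey band reaches 1.5-fold to either side of it. Lif with palmitic acid lies below the band, Il6 with palmitic acid just under its lower edge (-0.59), and Il23a with oleic acid lies above it.

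The stretch before the transcription start is shown for the 3 genes with the most negative palmitic acid differences, Lif, Il6 and Il12b, and for Tnf as a bright gene close to the control. Sequences are those of RefSeq on GRCm38.p6, 250 bases up to the start, read 5′ to 3′ on the strand of the gene. Capitals mark matches on either strand to 6 motifs: NF-kB (GGGA and CC with any 4 bases between), AP-1 (TGANTCA), the core of the CRE (TGACGT), C/EBP (TTGCNNAA), an ATF4 composite (TGATGNAA) and the TATA box (TATAAA). The regions are chr5:30012864-30013113 on the plus strand for Il6, chr11:44399813-44400062 on the plus strand for Il12b, chr11:4257318-4257567 on the plus strand for Lif and chr17:35202008-35202257 on the minus strand for Tnf.
Il6: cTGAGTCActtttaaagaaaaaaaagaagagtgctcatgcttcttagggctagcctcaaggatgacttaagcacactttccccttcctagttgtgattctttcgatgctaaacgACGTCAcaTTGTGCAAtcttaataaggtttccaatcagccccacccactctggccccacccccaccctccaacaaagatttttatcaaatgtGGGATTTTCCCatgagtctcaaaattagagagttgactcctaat
Il12b: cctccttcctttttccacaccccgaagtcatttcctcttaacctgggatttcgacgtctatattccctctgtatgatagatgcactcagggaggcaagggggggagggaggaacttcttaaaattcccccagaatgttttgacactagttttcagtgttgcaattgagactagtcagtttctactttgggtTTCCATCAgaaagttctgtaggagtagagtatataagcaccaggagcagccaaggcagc
Lif: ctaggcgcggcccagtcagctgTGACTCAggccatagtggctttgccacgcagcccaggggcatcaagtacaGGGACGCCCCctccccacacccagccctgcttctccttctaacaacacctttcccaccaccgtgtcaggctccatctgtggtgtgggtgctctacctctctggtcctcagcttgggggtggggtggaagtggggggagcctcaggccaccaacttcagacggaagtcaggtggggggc
Tnf: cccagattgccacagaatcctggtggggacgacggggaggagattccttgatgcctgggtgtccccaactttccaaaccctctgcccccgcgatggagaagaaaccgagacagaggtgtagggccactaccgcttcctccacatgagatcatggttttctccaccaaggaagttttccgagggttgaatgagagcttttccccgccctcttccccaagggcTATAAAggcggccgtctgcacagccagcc

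The Il6 sequence held matches to 4 of the motifs. The NF-kB letters stood at -44 to -35 on the plus strand and, overlapping them, at -43 to -34 on the minus strand. A C/EBP match lay at -128 to -121, a CRE core at -136 to -131 and an AP-1 match at -249 to -243. Lif had NF-kB letters at -178 to -169 and an AP-1 match at -228 to -222, and Il12b an ATF4 composite match at -59 to -52. Tnf had the TATA box letters at -29 to -24. Positions count back from the start, with -1 the base before it. Of 32851 RefSeq promoters of this length, 17.6% held the NF-kB letters, 6.75% AP-1, 6.47% the CRE core, 9.56% C/EBP, 3.45% the ATF4 composite and 12.4% the TATA box. A match describes letters and not binding. The promoter table matched 7 of the 9 genes, all but Il10 and Il23a. Of those not shown, Il1rn was higher with palmitic acid (0.20). The first of its 3 promoters held NF-kB letters at -54 to -45 and an AP-1 match at -141 to -135, and the others no match. Il1a had an AP-1 match at -12 to -6 and the TATA box letters at -32 to -27. Il1b had the TATA box letters at -31 to -26. For Il1a and Il1b the start used lies inside the outer limits of the gene.

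Il6, which codes for a cytokine that drives the acute phase response and STAT3 signalling, was lower with palmitic and oleic acid. Its values were 12.46 under palmitic, 12.63 under oleic and 12.96 under linoleic acid, against 13.05 in the control. Palmitic and oleic acid were the low arrays, and linoleic acid lay 0.09 below the control. The palmitic acid minus control difference was -0.59 in log2, 1.51-fold lower and just past the 1.5-fold limit. Centring each array on its median put it at -0.58, just inside. With oleic acid the difference was -0.42, or 1.34-fold lower. Il6 was the 1 gene of the 184 in the brightest class past 1.5-fold downward with palmitic acid. With oleic acid 2 of the 184, Il6 included, differed from the control by as much as it did. Il6 entered this class only through its control value, which is also the value subtracted, so these counts do not show a rare difference. In the class from 11 to 13, where its fatty acid values lie, 34 of 1642 genes (2.07%) passed the limit downward under palmitic acid. Between the fatty acids, Il6 stood at -0.50 for palmitic minus linoleic acid, -0.17 for palmitic minus oleic acid and 0.33 for linoleic minus oleic acid. In RNA of whole cultures, fewer cells that make a transcript and less of it per cell cannot be told apart.

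Markers of mesothelial cells and fibroblasts, which can also make IL-6 and LIF, were lower on the palmitic acid array, as were those of some other cell types. All 8 kept markers of 11 measured were lower there than in the control, with a median of -0.25, and 2 of the 8 were at least 1.5-fold lower, Pdgfrb (-1.29) and Pdgfra (-0.86), where the median of all kept genes was 0.00059 and 1.41% were that much lower. With oleic acid 6 of 8 were lower, 1 of them by 1.5-fold (Pdgfrb, -0.71), with a median of -0.04. With linoleic acid 3 of 8 were lower, with a median of 0.05. The mean log2 value over the 11 markers was 7.80 with palmitic acid, 8.06 with oleic acid, 8.18 with linoleic acid and 8.11 in the control. No RMA value is 0, and 3 markers, Upk3b, Krt19 and Lum, were below the filter on every array. With palmitic acid, 4 of 4 kept neutrophil markers (median -0.21), 3 of 3 kept dendritic cell markers (median -0.16) and 10 of 14 kept macrophage markers were also below the control. With the markers below the filter included, 9 of 11 neutrophil markers (median -0.13) and 6 of 8 dendritic cell markers (median -0.02) were below it. So were 9 of 11 mesothelial and fibroblast markers (median -0.21) and 11 of 15 macrophage markers (median -0.08). The part of these cells in the lower Il6 and Lif values was not tested.

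The IL-12 family combines shared and specific subunits, and its genes did not move one way. Il12b, the subunit common to IL-12 and IL-23, read 12.18 under palmitic, 12.19 under oleic and 12.59 under linoleic acid, against 12.60 in the control. Palmitic and oleic acid thus formed a low pair, and linoleic acid and the control a high pair. The differences from the control were -0.42, -0.41 and -0.01 in that order, with 0 of 3 at the 1.5-fold limit. Il12a, which codes for the subunit specific to IL-12, lay at -0.28, -0.35 and -0.03, again lower with palmitic and oleic acid.

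Il23a, which completes IL-23 together with the Il12b product and supports T cells that make IL-17, went the other way. It read 11.11 under palmitic, 11.33 under oleic and 10.83 under linoleic acid, against 10.71 in the control. Oleic acid was highest and the control lowest. The oleic acid minus control difference of 0.62 was 1.54-fold, and 0.591% of all kept genes differed by as much in either direction. With palmitic acid Il23a was 0.39 above the control, with linoleic acid 0.11. Linoleic minus oleic acid gave -0.51 for Il23a and 0.39 for Il12b, so the 2 subunits of IL-23 differed in opposite directions between the fatty acids with 18 carbons. The subunits of IL-27 lay at -0.32, 0.08 and 0.16 (Ebi3) and at -0.18, -0.30 and 0.04 (Il27) against the control with palmitic, oleic and linoleic acid.

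**Figure D3:**
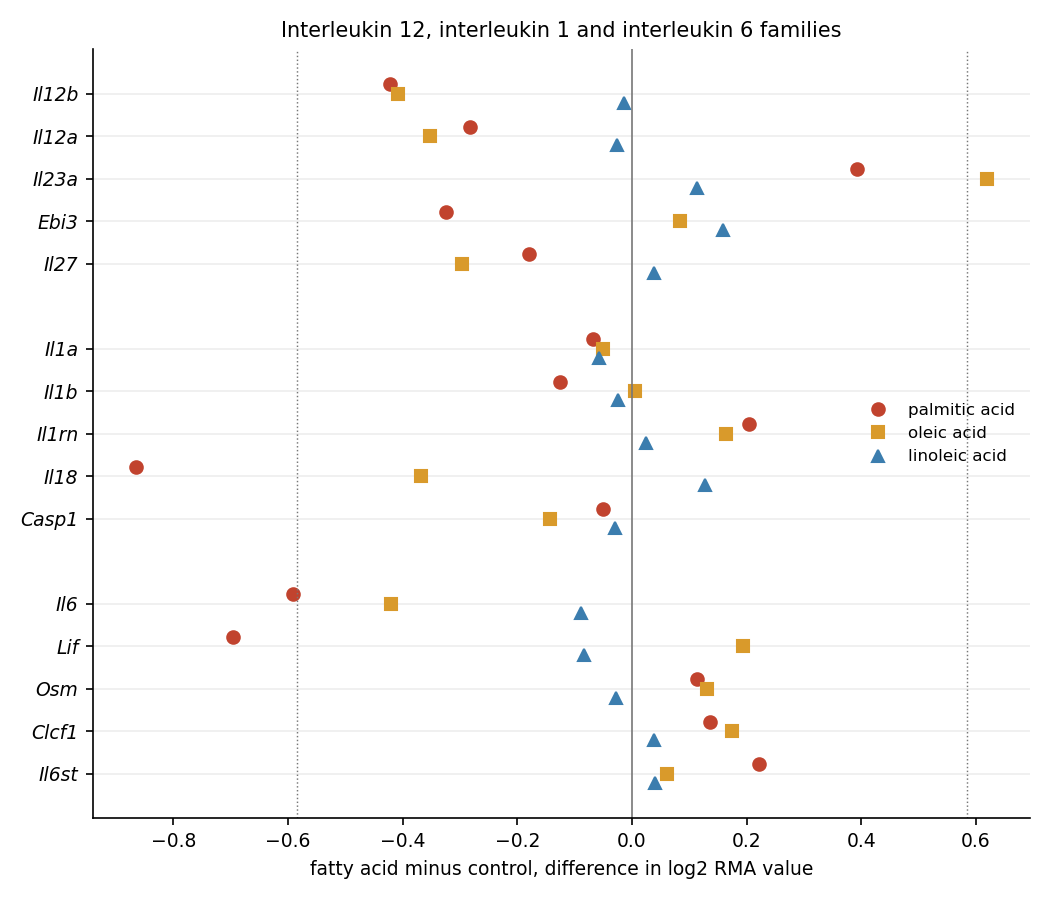
Symbols give the fatty acid minus control difference in log2 RMA value for palmitic acid (circles), oleic acid (squares) and linoleic acid (triangles), and dotted lines mark 1.5-fold. Il12b and Il12a lie left of 0 and Il23a right of 0 with palmitic and oleic acid. Il1a and Il1b stay within 0.13 of 0, and Il18 reaches -0.87 with palmitic acid.

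Within the interleukin 1 genes, the agonists stayed close to the control. Il1b, the agonist released after cleavage by caspase-1, read 13.65 under palmitic, 13.78 under oleic and 13.75 under linoleic acid, against 13.78 in the control. Palmitic acid was the lowest array, at -0.13, while 27.2% of the brightest class differed from the control by as much. Il1a, an agonist that is active without that cleavage, read 13.77, 13.79 and 13.78 with palmitic, oleic and linoleic acid, against 13.84 in the control. Its 3 differences from the control lay between -0.07 and -0.05.

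Il1rn, the receptor antagonist, was the member of this trio that was higher with both palmitic acid (12.85) and oleic acid (12.81), with 12.67 for linoleic acid and 12.64 for the control. The differences were 0.20 and 0.16, well under 1.5-fold, and 0.02 with linoleic acid, a value that turned to -0.01 when arrays were centred. Casp1, which codes for caspase-1, lay at -0.05, -0.14 and -0.03 with palmitic, oleic and linoleic acid. Il18, a relative that caspase-1 also processes, read 9.86 under palmitic, 10.35 under oleic and 10.85 under linoleic acid, against 10.72 in the control. Palmitic acid was the low array, at -0.87 from the control, and palmitic minus linoleic acid was -0.99.

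Tnf, which codes for tumour necrosis factor, stayed within 0.12 of the control on all arrays. It read 13.85 under palmitic, 13.64 under oleic and 13.71 under linoleic acid, against 13.76 in the control. Palmitic acid was highest and oleic acid lowest, 0.21 apart. In the brightest class 38% of genes differed from the control with palmitic acid by as much as Tnf did, and 10.3% with oleic acid. Adam17, the protease that sheds TNF from the cell surface, differed from the control by -0.02, -0.07 and 0.0012 with palmitic, oleic and linoleic acid. The TNF receptor genes Tnfrsf1a and Tnfrsf1b lay between 0.02 and 0.18 above it on the fatty acid arrays.

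Lif, which codes for leukaemia inhibitory factor, had the largest difference of the 9 genes. It read 6.84 under palmitic, 7.73 under oleic and 7.45 under linoleic acid, against 7.53 in the control. Palmitic acid was the low array and oleic acid the high one. The palmitic acid minus control difference was -0.70, or 1.62-fold lower, and palmitic minus oleic acid was -0.89, or 1.85-fold lower. Palmitic minus linoleic acid gave -0.61, or 1.53-fold lower. When arrays were centred it was -0.57 and after repeated quantile normalisation -0.56, both inside the limit. The palmitic acid value lies below the filter, so these folds are not exact. With values below the filter set to it, Lif stood at -0.44 for palmitic acid minus control, -0.64 for palmitic minus oleic acid and -0.36 for palmitic minus linoleic acid. Other ligands of this family lay nearer the control with palmitic acid, Osm at 0.11 and Clcf1 at 0.14, and the shared receptor chain Il6st at 0.22. Lifr, the specific receptor chain, lay at -0.12, 0.16 and 0.26 with palmitic, oleic and linoleic acid.

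Il10 was higher than the control on all 3 fatty acid arrays, at a dim level. Its values were 7.50 under palmitic, 7.49 under oleic and 7.35 under linoleic acid, against 6.99 in the control. The control array was the low one, and the fatty acid arrays lay within 0.15 of each other. Differences were 0.51, 0.50 and 0.37, with 0 of 3 at 1.5-fold, and all subtract the same dim control value. That value lies below the filter, so these differences are not exact. With values below the filter set to it, they were 0.41, 0.40 and 0.26 with palmitic, oleic and linoleic acid. The receptor genes Il10ra and Il10rb lay at -0.30 and -0.09 with palmitic acid and within 0.03 of the control with oleic and linoleic acid.

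In the order of the 4 arrays, the control was highest for Il1a, Il6 and Il12b and lowest for Il1rn, Il10 and Il23a. Oleic acid was highest for Il1b, Il23a and Lif, and palmitic acid highest for Il1rn, Il10 and Tnf. Palmitic acid was the lowest array for Il1a, Il1b, Il6, Il12b and Lif, and oleic acid for Tnf. Without replicates no neighbours in these orders can be told apart by a test. The gaps between palmitic and oleic acid were 0.01 for Il10 and Il12b, 0.02 for Il1a and 0.04 for Il1rn.

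Between the fatty acids, all at 500 µM for 6 h, Lif was the 1 gene of 9 that differed by 1.5-fold, over 3 pairs compared. Palmitic minus oleic acid had 1 gene lower and 0 higher, where 1.66% of all kept genes were lower and 1.82% higher, 3.47% in all. Palmitic minus linoleic acid also had 1 lower and 0 higher, where 2.01% of all kept genes were lower and 1.58% higher, 3.6% in all. For linoleic minus oleic acid, which differ by 1 double bond at the same chain length, 0 of 9 reached the limit, where 1.05% of all kept genes did, 0.707% higher and 0.34% lower. The largest differences there were Il23a (-0.51), Il12b (0.39) and Il6 (0.33). No interval can be given for any of these pairs, and differences under 1.5-fold do not show that the compounds act alike.

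Genes of the surrounding pathway were read from lists of 12 to 22 measured genes. Over all kept genes, 3.57%, 0.716% and 0.0716% passed 1.5-fold in either direction against the control under palmitic, oleic and linoleic acid, so a count of 0 in a list of this size is close to that background. Of 10 kept receptor genes, 0 were at least 1.5-fold higher or lower against the control for any of the fatty acids, with medians of -0.04, 0.05 and 0.04 for palmitic, oleic and linoleic acid. Il6ra, the specific IL-6 receptor chain, read 8.21 with palmitic acid and 8.80 with oleic acid, a difference of -0.59. Of 13 kept partners, relatives and maturation enzymes, 1 was higher and 1 lower by 1.5-fold with palmitic acid, and 0 with oleic or linoleic acid. The higher one was Il1f9, an interleukin 36 gene, which passed the filter through the palmitic acid array alone (7.20, against 6.59 in the control), and the lower one was Il18. Tnfsf15, a TNF relative, was 0.60 higher with palmitic than with oleic acid.

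With palmitic acid, 2 of 22 kept NF-kB subunits and induced regulators passed 1.5-fold upward and 2 downward, with a list median of -0.04, beside the 2.17% and 1.41% of all kept genes. Higher were the AP-1 genes Jun (1.53) and Fos (0.64). Fos passed the filter only through the palmitic (7.48) and oleic acid (7.42) arrays, and its control value of 6.84 lies below it. Its differences are therefore not exact, and the upward count depends on that dim value. Lower were Cebpd (-1.11), a C/EBP factor that amplifies Il6 transcription, and Bcl3 (-0.60), an atypical IkB protein. The same 22 had 0 beyond 1.5-fold with oleic acid, where Fos lay at 0.58, Cebpd at -0.50, Jun at 0.21 and Bcl3 at 0.05. Linoleic acid also had 0, and 21 of its 22 differences were above 0 at a median of 0.09, which became 17 of 22 at 0.06 when arrays were centred. The median of all kept genes with linoleic acid was 0.04. The NF-kB subunits Rel, Rela, Relb and Nfkb2 lay between -0.12 and 0.01 with palmitic acid, and Nfkbia, the inhibitor that NF-kB induces, at -0.04.

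Among 12 genes that act on the stability or translation of cytokine mRNA, most of them destabilising and Elavl1 known for stabilising it, palmitic acid had 1 past 1.5-fold upward and 0 downward. This was Zfp36l2, which codes for a protein that binds AU-rich elements, at 12.33 under palmitic, 11.64 under oleic and 11.73 under linoleic acid, against 11.58 in the control. Of all kept genes, 2.17% passed upward and 1.41% downward with palmitic acid. The list median was 0.17 under palmitic, 0.01 under oleic and 0.11 under linoleic acid, beside 0.00059, 0.01 and 0.04 over all kept genes. When arrays were centred the list medians were 0.18, 0.03 and 0.07, and after repeated quantile normalisation 0.13, 0.02 and 0.06. Oleic and linoleic acid had 0 past 1.5-fold in either direction. Zfp36, the related gene whose product marks Tnf mRNA for decay, lay at 0.20, 0.17 and 0.12. Zc3h12a, which codes for the RNase Regnase-1 that cleaves Il6 mRNA, lay at -0.07, 0.0024 and 0.14.

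Of 17 genes for signal brakes, STATs, receptor kinases (Jak1, Jak2 and Tyk2) and other signal regulators, palmitic acid had 1 past 1.5-fold upward (Dusp1) and 1 downward (Dusp2), at a list median of -0.24. Oleic acid had 1 upward (Dusp1) and 0 downward, at a median of 0.02, and linoleic acid 0 either way, at 0.09. Of all kept genes, 2.17% passed upward and 1.41% downward with palmitic acid, and 0.376% and 0.34% with oleic acid. Dusp1, a phosphatase that ends p38 and JNK signalling, was higher with both palmitic acid (12.60) and oleic acid (12.52) than with linoleic acid (11.84) or in the control (11.65). Dusp2, a related phosphatase, lay at -0.71 with palmitic acid. Socs1, a brake on cytokine receptors, lay at -0.52, 0.02 and 0.32 with palmitic, oleic and linoleic acid, a palmitic minus linoleic acid difference of -0.84. Socs3, induced by IL-6 through STAT3, lay at -0.24, 0.20 and 0.04, and Stat3 at 0.05, 0.23 and 0.15. Stat4, through which IL-12 signals in T cells, read 7.59 under palmitic, 8.35 under oleic and 7.72 under linoleic acid, against 7.83 in the control. Oleic acid was the high array, at 0.52 from the control, with -0.76 for palmitic minus oleic acid and -0.63 for linoleic minus oleic acid.

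**Figure D4:**
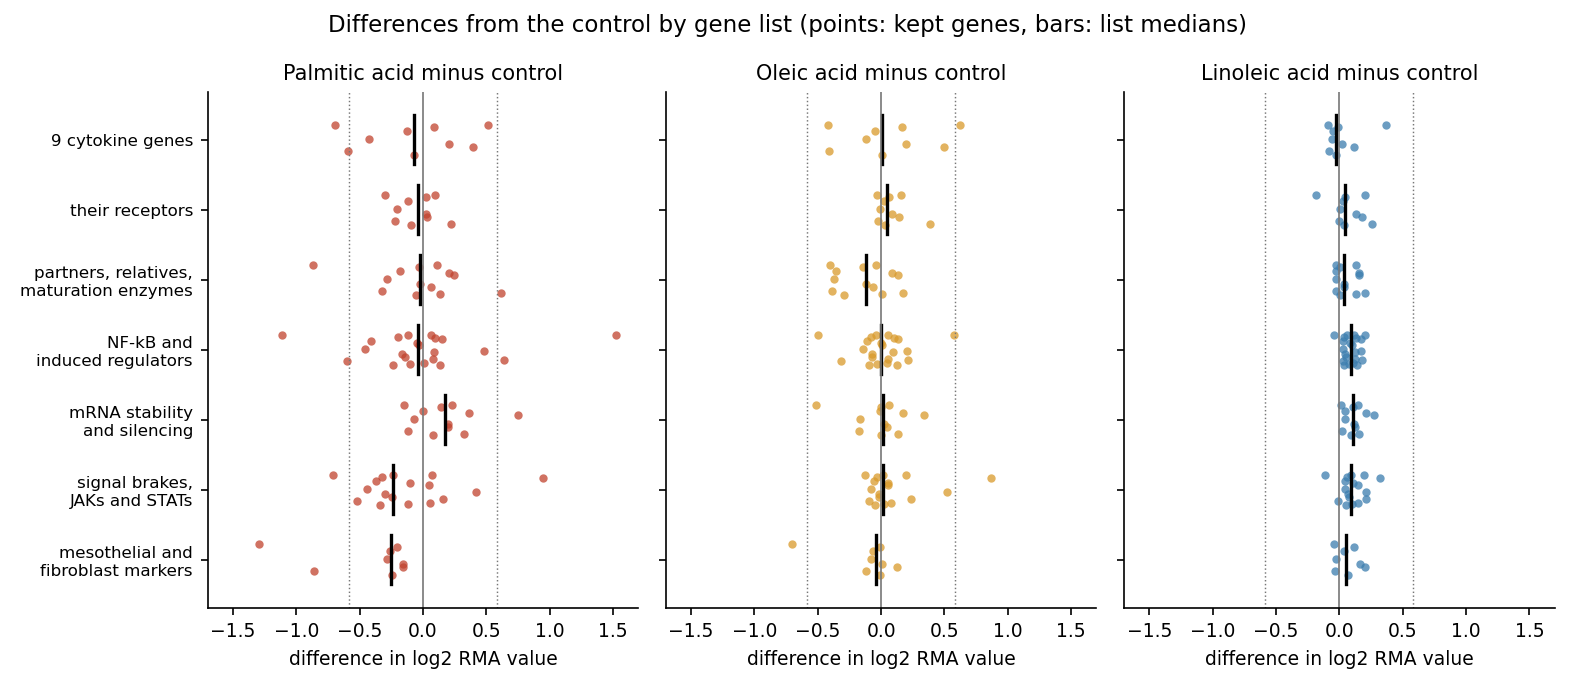
Each point is a kept gene of the list named at the left, placed by its fatty acid minus control difference in log2 RMA value, and black bars are list medians. Dotted lines mark 1.5-fold. The palmitic acid panel spreads furthest, with Jun at 1.53 and Cebpd at -1.11 in the NF-kB list, and the mesothelial and fibroblast markers all lie below 0 there.

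The 3 genes whose range over the arrays reached 1.5-fold, Il6, Il23a and Lif, were set beside the kept genes with the most similar profile. Such a range was found in 669 of all kept genes, or 5.99%. Likeness was the Euclidean distance between 4 log2 values after each gene's mean was subtracted, over 637 genes with a range of at least 1.5-fold. The nearest genes were chosen on these same values, so their like differences follow from the choice and show no shared regulation. Nearest to Il6 were Clec5a (distance 0.0656), Klf3 (0.104) and Spib (0.113), which lay at -0.66, -0.58 and -0.72 with palmitic acid and at -0.42, -0.40 and -0.44 with oleic acid. Spib passed the filter through the control array alone (7.15). Nearest to Il23a were Dusp5 (0.0144), Mospd1 (0.0301) and Lpxn (0.0339), with oleic acid differences of 0.62, 0.59 and 0.62. Nearest to Lif were Zbtb14 (0.0715), Anp32a (0.117) and P2ry14 (0.12), with palmitic acid differences of -0.69, -0.61 and -0.71.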

How the data were processed

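RNA of 4 groups of mouse macrophages was measured on 1 Affymetrix array each. The deposited values are log2 intensities that the authors summarised with RMA, per the submitters' processing notes, and neither its version nor its summary level was stated there. RMA includes quantile normalisation, and probes at the top of the scale can understate differences. Of 35556 probes, 21789 had exactly 1 gene in the platform annotation and 1621 had several. Probes of 1 gene were averaged, giving 19938 genes. A gene was kept where its highest value reached log2 7.09, the median over all probes and arrays. This filter kept 11174 genes. Differences of log2 values were taken for 6 pairs of arrays, and 1.5-fold (log2 0.58) was the limit for counts. No statistical test was possible with 1 array per group. Symbols of the 21698 probes with an Entrez ID in RefSeq GRCm38.p6 all matched it. Named list genes were those past 1.5-fold in any pair and only some of those with the next largest differences from the control. Others were genes with a known role beside a cytokine, chosen after their values were seen. The 3 nearest profiles left out the cytokine genes, predicted gene models and receptor clusters. The cytokine genes and the lists were chosen with earlier results of these data known. Python 3.11.15, numpy 2.4.6, pandas 2.3.3 and matplotlib 3.10.9 were used, and the steps were tested on simulated data. Alternatives changed the array scaling, the filter, the probe rule, dim values and the fold limit. Some genes of these pathways are not reported here.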

Additional observations from a re-analysis of the deposited data

How the results depend on the processing

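Of 54 differences of the cytokine genes, 49 kept their sign under every alternative, and the other 5 (Il1b and Il1rn with linoleic acid against the control, Il10 for palmitic minus oleic acid, and Il1a for palmitic minus linoleic and linoleic minus oleic acid) were close to 0. Palmitic acid against the control had 2 cytokine genes past the limit, and 1 with centred arrays (Il6 at -0.58), with a filter at the 75th percentile (Lif is dropped) or with dim values set to the filter (Lif at -0.44). Palmitic minus linoleic acid had 1, and 0 under those 3 settings and repeated quantile normalisation (Lif at -0.57, -0.56 and, with dim values set to the filter, -0.36). Palmitic minus oleic acid had 1, and 0 with the 75th percentile filter. At 1.3-fold the counts were 5, 4, 3 and 2 for palmitic acid against control, oleic acid against control, palmitic minus linoleic and linoleic minus oleic acid. At 2-fold they were 0. Of all kept genes, 1.3-fold was passed by 10.3%, 2.45% and 0.788% with palmitic, oleic and linoleic acid against the control, and by 11.5%, 9.32% and 4.05% for palmitic minus oleic, palmitic minus linoleic and linoleic minus oleic acid. In the same order, 2-fold was passed by 0.689%, 0.125%, 0%, 0.555%, 0.734% and 0.224%. With no filter 1.5-fold was passed by 2.17%, 0.461%, 0.145%, 2.13% and 2.2% for the first 5 pairs, and with the 75th percentile filter by 1.1% with oleic acid against the control. Fewer or more genes were tested under these filters. The list medians under other scalings were added after seeing the data. No paired analysis was possible because each group has 1 array. The number of arrays limits the precision, and dim probes such as Il10 and Lif lie next to the filter.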

Other observations

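Outside the cytokine genes, 4 of the 184 brightest genes also passed 1.5-fold in at least 1 pair of arrays. Among all kept genes, 5.99% did so. Plin2, which codes for a protein that coats lipid droplets, lay at 1.20 under palmitic, 1.22 under oleic and 0.11 under linoleic acid against the control. Tm4sf19 lay at 0.89, 0.07 and 0.18. Plk2 and Tnfsf15 passed for palmitic minus oleic acid, at 0.76 and 0.60. Tnfsf15 entered the brightest class only through its palmitic acid value (13.05), which is also the high value of that pair. These genes were named after their values were seen.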
